A study of Mus musculus with 6 samples.

Results

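Ltf, Camp, Ngp, Lcn2, Chil3, Mmp8, Mmp9, Cd177, Hp and Pglyrp1 encode proteins that mouse neutrophils store in secondary (specific) and tertiary (gelatinase) granules. They were chosen by name as proteins of these granules, with earlier results of these data known. They are 10 of the 38887 gene identifiers in the deposited counts. All 10 had enough counts to be tested, among 12259 tested genes. RNA was sequenced from bone marrow (BM) cells selected with Ly6G beads, from naive mice without tumor and from tumor-bearing (TB) mice at week 1 and week 3 of LL2 tumors. LL2 is a Lewis lung carcinoma line that expresses luciferase. The methods give its intravenous injection, which the study names an orthotopic model. Each of the 3 groups had 2 libraries, which the labels number as replicate mice, so each p-value below rests on the spread between pairs of libraries. All tumors came from 1 cell line, and neither the labels nor the methods tie a strain, sex or age to these libraries.

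Granule proteins are made in sequence as neutrophils mature in the BM. Primary granules, which carry myeloperoxidase and serine proteases, form first at the promyelocyte stage, secondary granules form in myelocytes and metamyelocytes, and tertiary granules form last, in band cells. The transcription factor C/EBPε is required for the genes of secondary granule proteins, and RNA for these proteins is found mainly in precursors within the marrow. Mature neutrophils release tertiary granules most readily and primary granules least.

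Promoter sequences are shown for the genes on which the results turn: Ltf, Camp and Ngp, which were lower at 3 weeks, Mmp8, which passed the test in no comparison, and Pglyrp1, which was higher at both times. Each is the stretch of 250 bases before the RefSeq start in GRCm38.p6, read 5′ to 3′ on the strand of the gene. Ltf lies at chr9:111019042-111019291 on the plus strand, Camp at chr9:109849457-109849706 on the minus strand, Ngp at chr9:110419558-110419807 on the plus strand, Mmp8 at chr9:7558179-7558428 on the plus strand and Pglyrp1 at chr7:18884440-18884689 on the plus strand. Capitals mark the letters TTGCNNAA, a form of the C/EBP motif, on either strand and, in Pglyrp1, the letters of the NF-kappaB motif.
Ltf: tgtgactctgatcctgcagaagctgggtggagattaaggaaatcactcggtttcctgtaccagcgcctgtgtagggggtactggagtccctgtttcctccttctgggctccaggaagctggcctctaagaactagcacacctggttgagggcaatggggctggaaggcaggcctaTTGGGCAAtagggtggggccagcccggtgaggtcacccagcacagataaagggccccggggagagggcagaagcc
Camp: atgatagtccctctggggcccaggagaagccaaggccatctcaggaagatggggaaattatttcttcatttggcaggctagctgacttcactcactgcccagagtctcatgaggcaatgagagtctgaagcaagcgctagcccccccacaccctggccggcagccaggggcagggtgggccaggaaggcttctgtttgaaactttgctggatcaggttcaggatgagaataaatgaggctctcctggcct
Ngp: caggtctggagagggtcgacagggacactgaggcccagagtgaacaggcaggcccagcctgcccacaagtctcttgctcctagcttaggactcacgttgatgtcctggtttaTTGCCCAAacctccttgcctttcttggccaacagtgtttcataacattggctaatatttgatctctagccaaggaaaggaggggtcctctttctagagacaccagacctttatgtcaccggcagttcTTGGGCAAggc
Mmp8: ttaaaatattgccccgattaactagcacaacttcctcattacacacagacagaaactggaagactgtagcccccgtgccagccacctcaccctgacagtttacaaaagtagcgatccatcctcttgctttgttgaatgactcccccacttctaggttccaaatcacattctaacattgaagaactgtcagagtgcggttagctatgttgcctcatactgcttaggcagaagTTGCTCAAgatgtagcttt
Pglyrp1: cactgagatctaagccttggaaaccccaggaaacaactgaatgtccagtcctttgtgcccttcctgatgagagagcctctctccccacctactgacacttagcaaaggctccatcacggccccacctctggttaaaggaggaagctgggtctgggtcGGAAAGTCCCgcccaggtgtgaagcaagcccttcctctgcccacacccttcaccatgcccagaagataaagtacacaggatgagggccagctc
Of the 10 genes, 8 had such a window, and Mmp9 and Hp are named only. The C/EBP letters stood in 4 of the 8 windows, those of Ltf, Ngp, Lcn2 and Mmp8, and in 9.56% of all 32851 windows. Ngp held 2 matches, 1 of them ending 4 bases before the start. The window of Camp held none, nor did those of Chil3, Cd177 and Pglyrp1. The windows of Ltf, Camp and Ngp overlapped their annotated genes in part, and those of Lcn2 and Pglyrp1 lay within theirs. The letters GAGGAA, a form of the PU.1 motif, stood in the windows of Ltf, Lcn2, Mmp8, Cd177 and Pglyrp1 and in 23.3% of all windows. The STAT letters TTCNNNGAA stood in that of Chil3 alone among the 8, and in 7.02% of all windows, and the NF-kappaB letters in that of Pglyrp1 alone, and in 1.41% of all windows. The NF-kappaB and PU.1 matches in Pglyrp1 did not overlap. The matches are a description of the letters and not of binding, and C/EBP matches stood both in genes that fell and in genes that did not pass the test.

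Library totals ran from 11994158 to 14127919 expected counts. Levels are given as CPM, counts brought to a common library total and scaled by the TMM factors, which lay between 0.9134 and 1.072. In these units 3 counts, the smallest number taken as detected, were between 0.2 and 0.246 CPM, a limit that covers counting error only. Libraries of a group differed by more than sampling noise (chi-square divided by its degrees of freedom 8.84 to 11.8 over the tested genes). The neutrophil markers S100a8 and S100a9 were abundant in every library, at 147300 to 228700 and 62950 to 80430 CPM. Ly6g, the gene of the protein used for selection, was nearly absent from the counts, at 0.491 to 2.14 CPM, and the cause was not tested. Since RNA of whole cell populations was measured, fewer cells of a type and less RNA per cell cannot be told apart.

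Neutrophils of 3-week TB mice held less RNA for Camp, Chil3, Ltf and Ngp than neutrophils of naive mice and more for Pglyrp1 and Hp. At 1 week only Pglyrp1 among the 10 genes passed the test, with a 3.05-fold higher level. Against the naive libraries 1 of the 10 genes was thus called higher and 0 lower at 1 week, where 7.99% of all tested genes were called, 4.23% higher and 3.76% lower (edgeR's quasi-likelihood test with Benjamini-Hochberg adjustment over all tested genes, adjusted p under 0.05). At 3 weeks 2 were called higher and 4 lower, where 21.4% of all tested genes were called, 12% higher and 9.42% lower. At an unadjusted p under 0.05 the lower count at 1 week was also 0, as it was with DESeq2. Both comparisons share the 2 naive libraries. From 1 to 3 weeks 2 genes were called higher, Mmp9 and Hp, and 5 lower, Camp, Chil3, Pglyrp1, Ltf and Ngp, where 22.5% of all tested genes were called, 12.9% higher and 9.57% lower. The median log2 fold change of the 10 genes was 0.07 at 1 week, 0.06 at 3 weeks and -0.21 from 1 to 3 weeks, beside 0.01, 0.03 and -0.02 for all tested genes. With scaling by library size alone, the median of all tested genes was -0.112 at 3 weeks against naive mice and -0.225 from 1 to 3 weeks. The genes did not move as a block, and Lcn2 and Mmp8 passed the test in none of the comparisons.

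**Figure D1:**
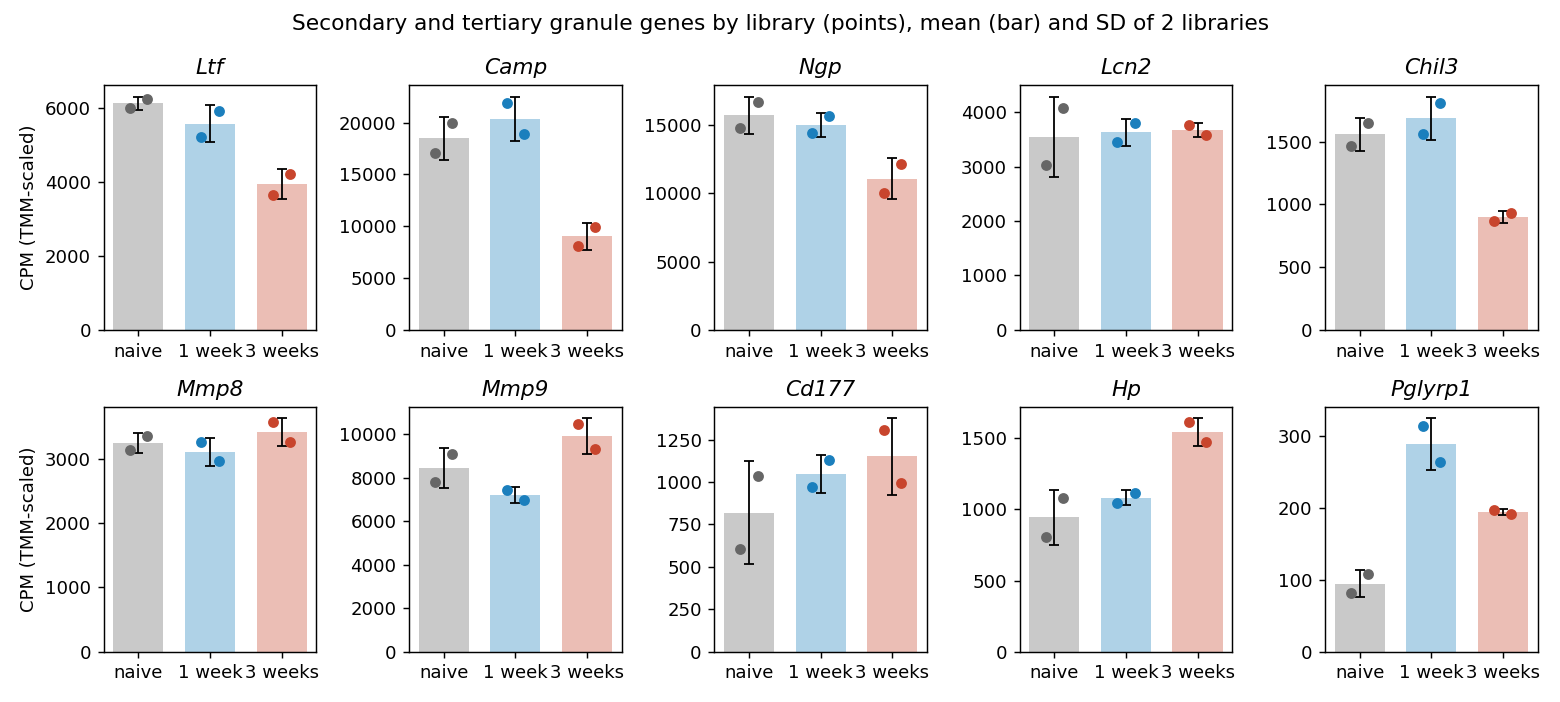
Level of each of the 10 granule genes in CPM (linear axes from 0, a scale for each gene) in naive mice and TB mice at 1 and 3 weeks. Points are libraries, bars the mean and error bars the SD of 2 libraries. Ltf, Camp, Ngp and Chil3 lie lowest at 3 weeks, Hp lies highest there, and Pglyrp1 lies between 263.1 and 313.9 CPM at 1 week, above all other libraries.

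The antimicrobial and iron-binding proteins of secondary granules include lactoferrin, cathelicidin, the neutrophilic granule protein and lipocalin 2. Camp (ENSMUSG00000038357, chromosome 9, 109847379 to 109849617, minus strand, GRCm38) encodes cathelicidin, whose cleaved peptide permeates bacterial membranes. It was at 17030 and 19940 CPM in the naive libraries, at 21880 and 18860 at 1 week and at 8100 and 9935 at 3 weeks. Both 3-week libraries lay below all 4 others, while the 1-week and naive libraries overlapped. At 3 weeks Camp was 2.05-fold lower than in naive mice, a log2 fold change of -1.04 (SE 0.14, adjusted p = 1.73e-04), the largest fall among the 10 genes. At 1 week the log2 fold change was 0.14 (SE 0.13, adjusted p = 0.584). Of the groups not overlapping between 3 weeks and naive mice there were 7 among the 10 genes, 4 of them lower and 3 higher, beside 59.6% of all tested genes.

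Ltf (ENSMUSG00000032496, chromosome 9, 111019271 to 111042767, plus strand) encodes lactoferrin, which binds iron and withholds it from microbes. Its level was 6017 and 6270 CPM in naive mice, 5241 and 5945 at 1 week and 3669 and 4231 at 3 weeks. The 3 groups did not overlap and stood in this order, but the step from naive to 1 week did not pass the test (log2 fold change -0.14, SE 0.12, adjusted p = 0.539). At 3 weeks Ltf was lower than in naive mice by a log2 fold change of -0.64 (SE 0.12, adjusted p = 0.00194). Ngp (ENSMUSG00000032484, chromosome 9, 110419747 to 110423012, plus strand) encodes a granule protein related to the cathelicidins and cystatins. It was at 14760 and 16670 CPM in naive mice, 14380 and 15610 at 1 week and 9988 and 12110 at 3 weeks. Again both 3-week libraries lay below all others, and the naive and 1-week libraries overlapped. The log2 fold change was -0.51 at 3 weeks (SE 0.12, adjusted p = 0.0116) and -0.07 at 1 week (SE 0.12, adjusted p = 0.808). The call of Ngp at 3 weeks was lost without naive replicate 2 (log2 fold change -0.41, adjusted p = 0.0649) and without week 3 replicate 1 (log2 fold change -0.36, adjusted p = 0.0717), and over all alternatives its adjusted p ran from 2.42e-06 to 0.0717. Camp, Chil3 and Ltf kept their calls against naive mice under all 16 alternatives.

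Chil3 (ENSMUSG00000040809, chromosome 3, 106147554 to 106167564, minus strand) encodes the chitinase-like lectin Ym1, an abundant protein of mouse neutrophils and alternatively activated macrophages. Its level was 1465 and 1650 CPM in naive mice, 1561 and 1807 at 1 week and 866.8 and 934.6 at 3 weeks. The 3-week libraries lay below all others and close together. The fall at 3 weeks was 1.73-fold (log2 fold change -0.79, SE 0.12, adjusted p = 4.53e-04), and at 1 week the log2 fold change was 0.11 (SE 0.12, adjusted p = 0.625). Its near copies Chil4 and Chil5, with which reads could be shared, were far lower, Chil4 at 0.0769 to 0.746 CPM and Chil5 at 8.84 to 16.9 CPM.

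Lcn2 (ENSMUSG00000026822, chromosome 2, 32384633 to 32388252, minus strand) encodes lipocalin 2, which binds bacterial iron carriers and joins with MMP-9 in neutrophils. It was at 3033 and 4071 CPM in naive mice, 3450 and 3808 at 1 week and 3767 and 3580 at 3 weeks. All 3 groups overlapped, and the naive libraries alone spanned the other 4. The log2 fold change was 0.03 at 1 week (95% interval -0.26 to 0.33, adjusted p = 0.929) and 0.05 at 3 weeks (95% interval -0.25 to 0.34, adjusted p = 0.846), and with scaling by library size alone the value at 3 weeks turned to -0.09. The interval at 3 weeks leaves out a fall of the size measured for Ltf. The 95% interval from 1 to 3 weeks ran from -0.28 to 0.31 around 0.02 (adjusted p = 0.944).

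Pglyrp1 (ENSMUSG00000030413, chromosome 7, 18871331 to 18890459, plus strand) encodes a peptidoglycan recognition protein that binds bacterial cell walls. It was the lowest of the 10 genes per length, and its CPM were 81.11 and 108.3 in naive mice, 313.9 and 263.1 at 1 week and 197.4 and 191.6 at 3 weeks. The 3 groups did not overlap, with the highest levels at 1 week. It was 3.05-fold higher at 1 week (log2 fold change 1.61, SE 0.15, adjusted p = 5.5e-05) and 2.05-fold higher at 3 weeks (log2 fold change 1.04, SE 0.14, adjusted p = 2.65e-04) than in naive mice. Both calls held under all 16 alternatives. The annotated gene begins before the RefSeq start used for the promoter window, and the counts do not separate its transcripts. Non-overlapping groups at 1 week, beside 53.2% of all tested genes, were found for Pglyrp1 as higher and for Ltf and Mmp9 as lower.

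Mmp8 and Mmp9 encode proteases of these granules. Mmp8 (ENSMUSG00000005800, chromosome 9, 7558456 to 7568485, plus strand) encodes neutrophil collagenase, a secondary granule enzyme. It was at 3144 and 3362 CPM in naive mice, 3267 and 2962 at 1 week and 3570 and 3262 at 3 weeks. The groups overlapped throughout. The log2 fold change was -0.06 at 1 week (95% interval -0.31 to 0.18, adjusted p = 0.798) and 0.07 at 3 weeks (95% interval -0.17 to 0.31, adjusted p = 0.711), and with scaling by library size alone the latter turned to -0.08. Mmp9 (ENSMUSG00000017737, chromosome 2, 164940780 to 164955850, plus strand) encodes gelatinase B, which gives tertiary granules their other name. Its level was 7815 and 9109 CPM in naive mice, 7454 and 6961 at 1 week and 10490 and 9328 at 3 weeks. The naive libraries lay between the lower 1-week and the higher 3-week libraries, with no overlap. Neither step from naive mice passed the test, with a log2 fold change of -0.23 at 1 week (SE 0.12, adjusted p = 0.268) and 0.23 at 3 weeks (SE 0.12, adjusted p = 0.201), whereas the step from 1 to 3 weeks did.

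Cd177 (ENSMUSG00000052212, chromosome 7, 24743983 to 24760311, minus strand) encodes a surface glycoprotein that is also held in secondary granules and binds PECAM-1. Its naive libraries were far apart, at 604.7 and 1033 CPM. At 1 week it was at 968.7 and 1128 CPM and at 3 weeks at 1310 and 992.3. The groups overlapped. The log2 fold change was 0.36 at 1 week (95% interval -0.08 to 0.80, adjusted p = 0.324) and 0.49 at 3 weeks (95% interval 0.05 to 0.93, adjusted p = 0.106). Without naive replicate 2, the higher of the pair, both passed the test, with log2 fold changes of 0.79 (adjusted p = 0.0311, from 0.0311 to 0.971 over the alternatives) and 0.94 (adjusted p = 0.00627, from 0.00123 to 0.706 over the alternatives). Without week 3 replicate 2 the value at 3 weeks was 0.68 (adjusted p = 0.0433). Both also passed without a filter on low counts, with 0.36 (adjusted p = 0.0358) and 0.46 (adjusted p = 0.00123).

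Hp (ENSMUSG00000031722, chromosome 8, 109575128 to 109579172, minus strand) encodes haptoglobin, which binds free haemoglobin and is carried in neutrophil granules as well as made by the liver. It was at 805.1 and 1082 CPM in naive mice, 1044 and 1119 at 1 week and 1612 and 1474 at 3 weeks. Both 3-week libraries lay above all others. The log2 fold change was 0.71 at 3 weeks (SE 0.14, adjusted p = 0.00259), a call that held under all 16 alternatives, and 0.20 at 1 week (SE 0.14, adjusted p = 0.429).

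**Figure D2:**
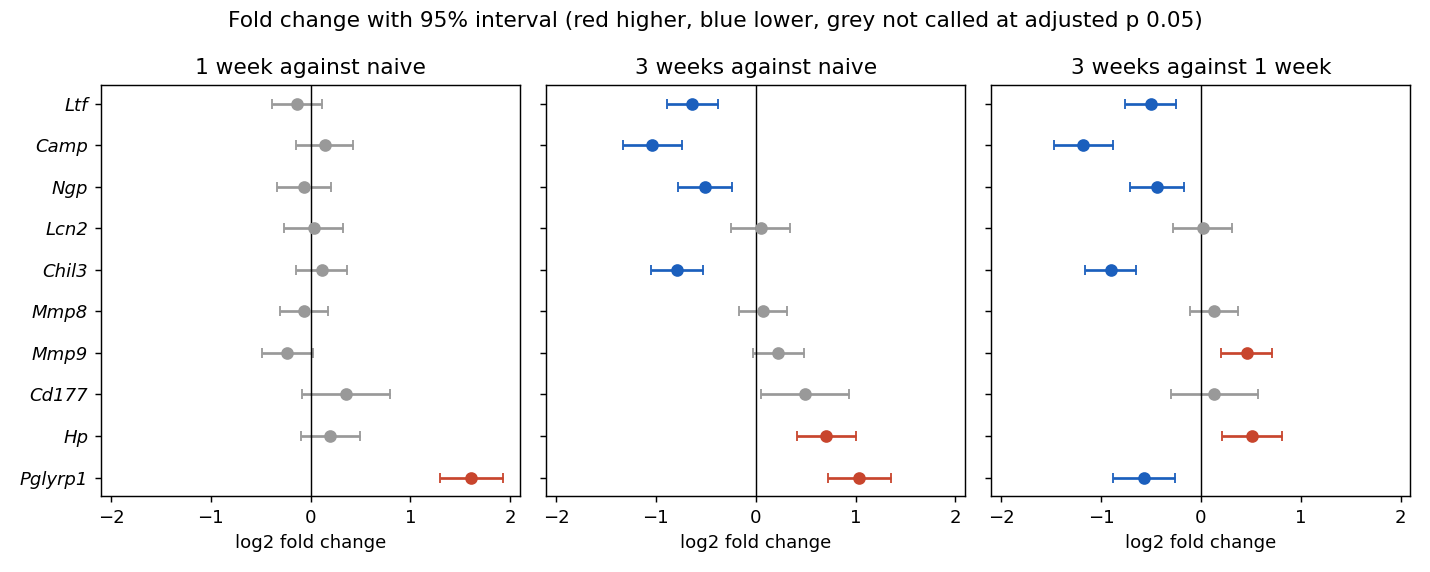
log2 fold change of the 10 granule genes (points) with 95% intervals (bars) for 1 week against naive mice, 3 weeks against naive mice and 3 weeks against 1 week. Red points were called higher, blue points lower and grey points not called at an adjusted p of 0.05. Intervals of Lcn2 and Mmp8 include 0 in each panel, and Camp lies lowest in the middle and right panels, at -1.04 and -1.18.

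The comparison of 3 weeks with 1 week tests directly whether levels differed between the stages. Camp was lower at 3 weeks by a log2 fold change of -1.18 (SE 0.14, adjusted p = 5.75e-05) and Chil3 by -0.90 (SE 0.12, adjusted p = 1.56e-04), and both calls held under all alternatives. Pglyrp1, still above naive mice, had fallen from its 1-week level by 0.57 on the log2 scale (SE 0.14, adjusted p = 0.0116). The values of Ltf were -0.50 (SE 0.12, adjusted p = 0.00825) and of Ngp -0.44 (SE 0.12, adjusted p = 0.0229). Mmp9 and Hp went the other way, with a log2 fold change of 0.46 (SE 0.12, adjusted p = 0.0146) and 0.51 (SE 0.14, adjusted p = 0.0168). The 1-week and 3-week libraries did not overlap in 7 of the 10 genes, beside 63.8% of all tested genes. Mmp8 had 0.13 (95% interval -0.11 to 0.38, adjusted p = 0.429) and Cd177 0.13 (95% interval -0.30 to 0.57, adjusted p = 0.677), and with scaling by library size alone both turned to -0.07.

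Of the calls between the weeks, those of Camp and Chil3 did not depend on a single library. Leaving out week 1 replicate 1, week 1 replicate 2 or week 3 replicate 1 each left 3 of the 7 calls, and leaving out week 3 replicate 2 left 6. The adjusted p of Ltf became 0.0777 without week 1 replicate 2 and 0.0619 without week 3 replicate 1, the range over all alternatives being 1.54e-05 to 0.0777. For Ngp it became 0.0532, 0.12 and 0.145 without week 1 replicate 1, week 1 replicate 2 and week 3 replicate 1 (range 5.39e-05 to 0.145), and without the last of these its log2 fold change was -0.29. Mmp9 lost its call without the same 3 libraries (adjusted p = 0.0752, 0.149 and 0.0586, range 2.85e-04 to 0.149), as did Hp (adjusted p = 0.144, 0.0792 and 0.0662, range 2.62e-05 to 0.144). With scaling by library size alone Mmp9 had 0.26 (adjusted p = 0.0847) and Hp 0.31 (adjusted p = 0.0791). Pglyrp1 lost its call without week 1 replicate 1 (adjusted p = 0.102) and without week 3 replicate 2 (adjusted p = 0.0528, range 6.18e-05 to 0.102). In none of these did the sign change.

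Among themselves the 10 genes spanned a wide range of levels per length, in CPM per kilobase of exon. In naive mice Camp had the highest level per kilobase, 24380 ± 2710 (SD, n = 2), and Pglyrp1 the lowest, 51.56 ± 10.5. Between them stood Ngp at 12860 ± 1110, Mmp9 at 2391 ± 258, Ltf at 1781 ± 52, Lcn2 at 1354 ± 280, Mmp8 at 1342 ± 63.6, Chil3 at 954.4 ± 80.4, Hp at 587.6 ± 122 and Cd177 at 288.4 ± 107 CPM per kilobase. The genes kept this order at 1 week. Lcn2 and Mmp8 were the only neighbours in it whose libraries overlapped, in all 3 groups. At 3 weeks Camp, with 11900 ± 1710 CPM per kilobase, and Ngp, with 9044 ± 1230, were still highest. Ltf, with 1145 ± 115, stood below Mmp8 and Lcn2 there, with 1409 ± 89.7 and 1401 ± 50.6. Chil3, with 551.9 ± 29.4, stood below Hp, with 960.7 ± 60.7.

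**Figure D3:**
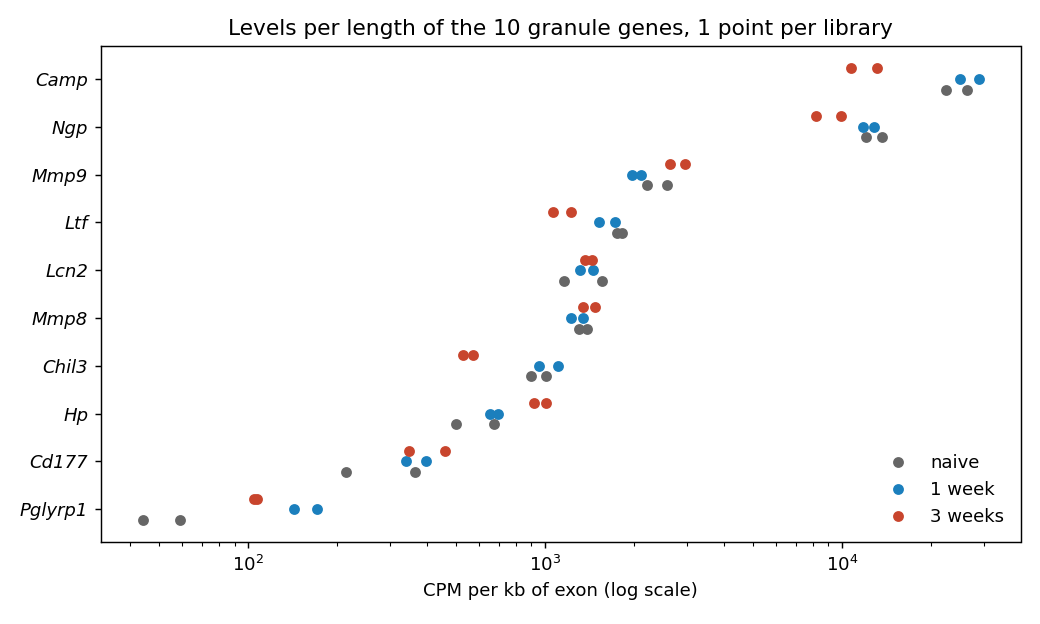
Level of each granule gene in CPM per kilobase of exon (log axis), with 1 point per library, coloured by group. Camp and Ngp lie highest in each group, and the 3-week points of Camp, Ngp, Ltf and Chil3 lie left of the others of the same gene while those of Hp and Mmp9 lie right.

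Together the 10 genes held 5.769% and 6.257% of the counts in the naive libraries, 6.376% and 6.136% at 1 week and 3.976% and 4.285% at 3 weeks. The share was lower in both 3-week libraries than in all others. Camp alone went from 1.794% and 1.971% of the counts in naive mice to 0.7392% and 0.9247% at 3 weeks, and Ngp from 1.555% and 1.648% to 0.9115% and 1.127%. These shares use no scaling between libraries. Among all genes ordered by their counts, which also depend on gene length, Camp stood at rank 5 in both naive libraries and at ranks 9 and 7 at 3 weeks, while Mmp9 stood at rank 9 in both naive libraries and at ranks 6 and 8 at 3 weeks. Chil3 stood at ranks 39 and 42 in naive mice and at ranks 117 and 113 at 3 weeks.

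Ratios of counts within a library do not depend on the scaling either. The ratio of Camp to Mmp9 was 2.18 and 2.19 in naive mice, 2.94 and 2.71 at 1 week and 0.772 and 1.07 at 3 weeks. That of Ltf to Mmp9 was 0.77 and 0.688 in naive mice, 0.703 and 0.854 at 1 week and 0.35 and 0.454 at 3 weeks. In both, the 3-week libraries lay below all others, so Camp and Ltf changed unequally to Mmp9. Hp to Ltf went the other way, from 0.134 and 0.173 in naive mice to 0.199 and 0.188 at 1 week and 0.439 and 0.348 at 3 weeks. Camp to Ngp, both lower at 3 weeks, was at 1.15 and 1.2 in naive mice and 0.811 and 0.82 at 3 weeks. Mmp8 to Mmp9 was 0.402 and 0.369 in naive mice, 0.438 and 0.425 at 1 week and 0.34 and 0.35 at 3 weeks, where it was lowest.

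Over the 6 libraries, which share 3 groups and so are not independent points, log2 CPM of Ltf and Ngp had a Pearson's r of 0.977 and that of Camp and Chil3 0.962. Mmp8 and Mmp9 had 0.882, and Cd177 had 0.836 with Lcn2 and 0.815 with Hp. Ltf and Hp had -0.862. These values mainly restate the group means above and are given as a description. By the rule used for likeness, the tested genes closest to the mean profile of the 10 genes were Pomt1 (r = 0.9941), Pnpla3, Fancc, Nkain3 and Enkd1 (r = 0.9813), and none of these 5 was called in any comparison.

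Camp, Ngp and Ltf lie within 1195389 bases of chromosome 9, from 109847379 to 111042767 in GRCm38. Of all tested genes 9.42% were called lower at 3 weeks against naive mice and 12% higher. Of the 17 other tested genes between the outer ends of Camp and Ltf, 4 were called lower, 1 higher and 12 neither. Those lower were Cdc25a, Map4, Nradd and Nbeal2, with log2 fold changes from -1.27 to -0.42, and the gene higher was Als2cl with 1.79 (adjusted p = 0.0165). These genes were named after their values were seen. Nbeal2, known for its role in the granules of platelets and neutrophils, had -0.48 (adjusted p = 0.0108).

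Counts called in other lists stand beside 7.99% of all tested genes at 1 week, 21.4% at 3 weeks and 22.5% from 1 to 3 weeks. Genes listed for primary granules, which form before the secondary ones, were compared as the nearest list. Of 12 listed, 11 were tested, and 0 were called at 1 week, by edgeR or by DESeq2, with 2 higher at an unadjusted p under 0.05. At 3 weeks 8 were called higher and 1 lower, with a median log2 fold change of 0.67 beside 0.03 for all tested genes. The 8 included Srgn and Serpinb1a, with log2 fold changes of 0.57 and 0.53. Prtn3, the serine protease proteinase 3, was at 10.37 and 14.82 CPM in naive mice and at 99.75 and 136 at 3 weeks (log2 fold change 3.23, SE 0.27, adjusted p = 3.52e-06). Mpo, myeloperoxidase, stood at 34.9 and 23.33 CPM in naive mice and 119.2 and 167.3 at 3 weeks (log2 fold change 2.30, SE 0.24, adjusted p = 2.73e-05). Ctsg and Elane, cathepsin G and neutrophil elastase, had 2.91 and 2.45 but only 1.64 to 2.69 CPM in naive mice, 20 to 34 counts a library. Fcnb, a ficolin, was the gene called lower (log2 fold change -1.12, SE 0.14, adjusted p = 9.12e-05). Prss57 lost its call with scaling by library size alone or without week 3 replicate 2, and without naive replicate 1 both Prss57 and Serpinb1a did.

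The remaining proteins of secondary and tertiary granules and their membranes formed a list of 26 genes, of which 24 were tested and Ptx3 and Orm2 had 0 counts in every library. At 1 week 3 were called higher by edgeR and 0 lower, with 5 lower at an unadjusted p under 0.05 and 2 with DESeq2. Lyz2, lysozyme, rose from 7869 and 10030 CPM in naive mice to 13710 and 14020 (log2 fold change 0.63, SE 0.15, adjusted p = 0.02). Retnlg, a resistin-like secreted protein, and Orm1, an acute-phase lipocalin, had 0.58 (adjusted p = 0.00813) and 0.67 (adjusted p = 0.0257). The calls of Lyz2 and Orm1 at 1 week were lost without naive replicate 1 or week 1 replicate 2, which left 1 higher, and without week 1 replicate 1 all were lost, which left 0. At 3 weeks 5 were called higher and 2 lower, the latter being Lyz2, at 3205 and 4191 CPM (log2 fold change -1.27, SE 0.15, adjusted p = 6.62e-05), and Orm1 (log2 fold change -1.54, SE 0.18, adjusted p = 6.87e-05). Lyz1, a near copy of Lyz2, was at 1.71 to 9.84 CPM. Lrg1 was higher by 1.36 on the log2 scale (adjusted p = 9.65e-04), Ceacam10 0.84 and Retnlg 0.43, and Slc11a1 and Fpr1, named after their values were seen, 0.78 and 0.47. Subunits of the oxidase cytochrome in these membranes had -0.24 (Cybb, adjusted p = 0.169) and 0.15 (Cyba, adjusted p = 0.486). Without naive replicate 1 Slc11a1 and Fpr1 lost their calls. Retnlg lost its call at 3 weeks with edgeR on the compared groups alone, and Retnlg and Fpr1 theirs with scaling by library size alone. With scaling by library size alone the split of the list at 3 weeks was 3 higher and 7 lower. From 1 to 3 weeks 5 were called higher and 2, Lyz2 and Orm1, lower, and with that scaling 1 higher and 6 lower. Without week 1 replicate 2 the count higher was 1, and without week 1 replicate 1 or week 3 replicate 1 it was 3.

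**Figure D4:**
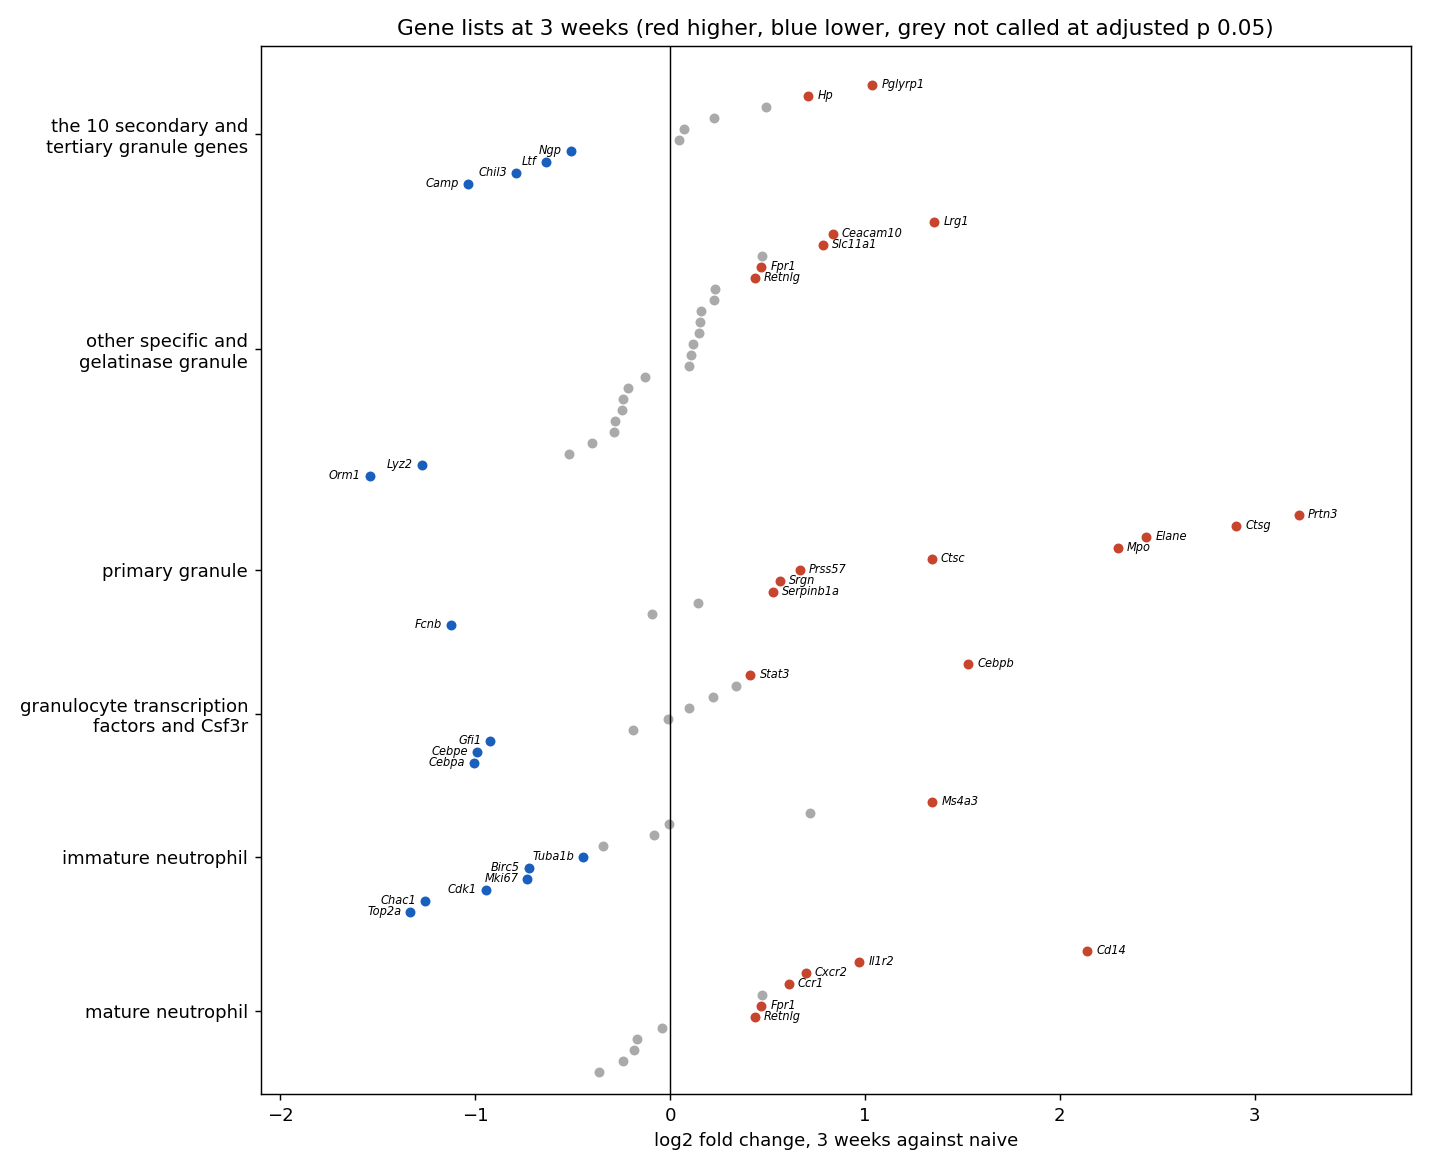
log2 fold change at 3 weeks against naive mice for the tested genes of 6 lists, 1 point per gene in order of value within its list. Red points were called higher, blue lower and grey not called at an adjusted p of 0.05. The 10 granule genes fall on both sides of 0, with 4 lower and 2 higher. Among genes listed for primary granules 8 were higher and 1 lower.

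Receptors and inhibitors of the 10 proteins were listed as 13 genes, 9 of them tested. Slc22a17 and Lrp2, receptors of lipocalin 2, Timp1, an inhibitor of MMP-9, and A2m were too low to be tested. At 1 week Trem1, a receptor on which Pglyrp1 acts, was called lower, at 369.8 and 327.7 CPM beside 498.9 and 545.7 in naive mice (log2 fold change -0.58, SE 0.11, adjusted p = 0.00889), and so was the protease inhibitor gene Timp2 (log2 fold change -0.41, SE 0.11, adjusted p = 0.0387). Timp2 lost its call with scaling by library size alone, with a replicate block and without naive replicate 1 or either 1-week library, and without week 1 replicate 2 so did Trem1. At 3 weeks Fpr2, a receptor of the cathelicidin peptide, was called higher (log2 fold change 0.53, SE 0.11, adjusted p = 0.00489) and Timp3, at 1.08 to 4.12 CPM in these libraries, lower (log2 fold change -1.42, SE 0.42, adjusted p = 0.0291). Both calls at 3 weeks were lost without naive replicate 1. That of Timp3 was also lost with DESeq2, on all libraries or the compared groups alone, and without either 3-week library. Cd163, the haptoglobin receptor of macrophages, Lrp1, a receptor of lactoferrin, Pecam1, the partner of CD177, and Itgam and Itgb2, the chains of the integrin Mac-1, were not called at 1 or 3 weeks against naive mice. From 1 to 3 weeks Trem1, Fpr2 and Itgam were called higher by edgeR and 0 genes lower, with 1 lower at an unadjusted p under 0.05 and 0 with DESeq2. Without week 1 replicate 2 all 3 calls were lost, and Trem1 lost its call without any other of the 1-week and 3-week libraries. With scaling by library size alone 1 was higher and 1 lower.

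Transcription factors of granulocytes and the G-CSF receptor gene Csf3r made a list of 10 genes, all tested. Cebpe, which drives secondary granule genes, was at 87.44 and 93.32 CPM in naive mice, 103.1 and 110.7 at 1 week and 44.37 and 46.6 at 3 weeks. The 3-week libraries lay below all others (log2 fold change -0.99 against naive mice, SE 0.12, adjusted p = 8.49e-05), and the 1-week libraries did not pass the test (log2 fold change 0.24, adjusted p = 0.228). At 3 weeks Cebpa was lower, at 3.956 and 5.076 CPM beside 7.834 and 10.31 in naive mice (adjusted p = 0.00742), and so was the repressor gene Gfi1 (log2 fold change -0.92, SE 0.17, adjusted p = 0.00151). Cebpb, a factor of emergency granulopoiesis, went the other way, from 373.4 and 277.8 CPM to 928.9 and 952.9 (log2 fold change 1.53, SE 0.17, adjusted p = 3.56e-05), as did Stat3 (log2 fold change 0.41, SE 0.11, adjusted p = 0.0155). The call of Cebpa was lost without naive replicate 2 or week 3 replicate 1. That of Stat3 was lost with edgeR on the compared groups alone and with scaling by library size alone. Without naive replicate 1 or without week 3 replicate 2 the call of Stat3 was lost as well. At 1 week Stat3 was the only gene of the list called, as lower (log2 fold change -0.48, SE 0.11, adjusted p = 0.0176), and DESeq2 and the replicate block also called 1 gene higher. That call of Stat3 was lost without any one of the naive and 1-week libraries. Spi1, which encodes PU.1, Runx1, Cebpd, Klf5 and Csf3r were not called against naive mice. From 1 to 3 weeks 4 genes of the list were called higher, Cebpb, Stat3, Spi1 and Csf3r, and 4 lower, Cebpe, Cebpa, Gfi1 and Klf5. With scaling by library size alone, or without either 1-week library, Spi1 and Csf3r lost their calls and 2 were higher. Csf3r also lost its call with a replicate block and without either naive library or week 3 replicate 2. The same held for Csf3r with edgeR on the compared groups alone, TMM factors estimated without the 10 granule genes and at least 10 counts in every library. Spi1 lost its call without week 3 replicate 1, and Klf5 without week 1 replicate 2 or week 3 replicate 2.

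Markers of maturation moved at 3 weeks as well. Of 11 genes listed for immature neutrophils 6 were called lower and 1 higher at 3 weeks against naive mice. Those lower were mostly genes of dividing cells, such as Top2a (log2 fold change -1.33, SE 0.13, adjusted p = 1.57e-05) and Cdk1 (log2 fold change -0.95, SE 0.13, adjusted p = 2.21e-04), while Ms4a3, a gene of early granulocyte precursors, was higher (log2 fold change 1.35, SE 0.20, adjusted p = 4.09e-04). The summed level of the list, to which Hmgn2 gave most, ran from 3546 to 3799 CPM in naive mice, 3043 to 3348 at 1 week and 3097 to 3317 at 3 weeks. Of 12 tested genes listed for mature neutrophils 6 were called higher by edgeR and 0 lower (1 lower at an unadjusted p under 0.05, and 1 with DESeq2), among them Cd14 (log2 fold change 2.14, SE 0.15, adjusted p = 1.24e-06), Il1r2 (log2 fold change 0.97, SE 0.17, adjusted p = 0.00133) and Cxcr2 (log2 fold change 0.70, SE 0.14, adjusted p = 0.00288). Their sum ran from 12530 to 12540 CPM, 13120 to 14750 and 14490 to 14910 in the same order. Of this sum Retnlg gave 5619 and 5470 CPM in naive mice, 8779 and 7750 at 1 week and 7461 and 7535 at 3 weeks. With scaling by library size alone 4 of the genes for mature neutrophils were higher and 2 lower at 3 weeks. Retnlg and Fpr1 stand both in this list and in that of the remaining granule proteins. Without naive replicate 1 Chac1 of the immature list lost its call as lower, and Cxcr2, Ccr1 and Fpr1 of the mature list theirs as higher. Without naive replicate 2 Tuba1b and Chac1 of the immature list lost their calls, and without week 3 replicate 2 Tuba1b did. Fpr1 also lost its call without week 3 replicate 1. The call of Retnlg was lost with edgeR on the compared groups alone, and those of Retnlg and Fpr1 with scaling by library size alone. The part of these markers in the lower levels of Camp, Chil3, Ltf and Ngp was not tested.

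Markers of other cell types, which a selection by beads can carry along, also moved. The 10 genes listed for the B lineage were all called lower at 3 weeks, with a median log2 fold change of -2.66, and their summed level was 48.96 to 62.2 CPM in naive mice, 48.33 to 61.88 at 1 week and 12.46 to 14.19 at 3 weeks, with Rag1 at 0 in both 3-week libraries. Those of eosinophils, basophils and mast cells, 6 tested of 10, summed to 92.82 to 95.38, 141.4 to 143.9 and 39.78 to 40.61 CPM, with 4 called higher at 1 week and 4 lower at 3 weeks. The first count was 0 without naive replicate 1, 2 without naive replicate 2 and 1 without either 1-week library, and the second was 2 without either naive library or week 3 replicate 1. Monocyte and macrophage genes summed to 1539 to 1553, 1445 to 1509 and 1486 to 1860 CPM, with 1 higher and 2 lower at 3 weeks, which were 4 and 1 without week 3 replicate 2. The count lower was also 1 without naive replicate 1. T and NK cell genes summed to 15.8 to 18.12, 19.16 to 29.84 and 11.48 to 13.54 CPM, with Trac at 0 throughout, and megakaryocyte genes to 187.8 to 201.4, 159.4 to 183.9 and 131.9 to 148.6 CPM. Erythroid genes summed to 1190 to 1497 CPM in 5 libraries and to 569.3 in week 3 replicate 2, and without that library 7 of the 10 granule genes were called at 3 weeks against naive mice. In each library the sums of B lineage, T and NK cell, megakaryocyte and basophil lists were smaller than the levels of Chil3 and Hp. Those of the monocyte and macrophage and the erythroid lists were not smaller in every library. The monocyte and macrophage sum at 3 weeks, 1860 and 1486 CPM, was above Chil3 there, at 866.8 and 934.6. The erythroid sum in naive mice, 1326 and 1190 CPM, was above Hp there, at 805.1 and 1082. A sum of markers does not measure how much RNA of a granule gene came from those cells. The part of these cells in the results was not tested.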

How the data were processed

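RNA of Ly6G-selected BM neutrophils was measured in 2 libraries of each of 3 groups. The authors deposited expected counts per gene, whole numbers without scaling between libraries, which RSEM estimated from single-end reads of total RNA libraries against mm10 and the Ensembl transcriptome. The submitters' processing notes name RSEM 1.2.31, Bowtie2 and DESeq2. Reads that match near-identical genes are shared between them by such estimates. Of 38887 identifiers, 37570 matched GENCODE annotation of GRCm38, which gave symbols, positions and exon lengths.

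Genes were filtered with filterByExpr, which left 12259, scaled by TMM and compared with edgeR 4.0.16 (R 4.3.3) by its quasi-likelihood test. The 6 libraries entered 1 fit, and only the group entered as a term. P-values were adjusted by the Benjamini-Hochberg method over all tested genes, with a threshold of 0.05. Correlations used log2 CPM with a prior count of 2. The scripts were tested on simulated data. The totals of 11994158 to 14127919 counts set the precision, and PCR copies are not independent molecules, so counting limits cover counting error only.

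The 10 granule genes and all other lists were chosen with earlier results of these data known. All 10 are named. From other lists the genes named are those with the smallest adjusted p-values and any gene of the primary granule, receptor and inhibitor and transcription factor lists, and other names were chosen after their values were seen. Likeness was ranked by Pearson's r with the mean centred log2 CPM of the 10 genes. Replicate numbers denote different mice, and deviations of same-numbered libraries from their group means had correlations of 0.0101 to 0.0379, so no pairing was used. Alternatives were DESeq2 1.42.0, the compared groups alone, other scalings and filters, a replicate block, protein-coding genes alone and each library left out in turn. Promoter sequences came from RefSeq with GRCm38.p6.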

Additional observations from a re-analysis of the deposited data

Results flagged for a closer look

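Levels at 3 weeks differed from those at 1 week for 7 of the 10 granule genes, beside 22.5% of all tested genes. This was tested directly as the difference between the weeks (edgeR's quasi-likelihood test, adjusted over all tested genes). The log2 fold change at 3 weeks minus that at 1 week was -1.18 for Camp (adjusted p = 5.75e-05) and -0.90 for Chil3 (adjusted p = 1.56e-04). It was -0.57 for Pglyrp1 (adjusted p = 0.0116), which was above naive mice at both times, -0.50 for Ltf (adjusted p = 0.00825) and -0.44 for Ngp (adjusted p = 0.0229). It was 0.46 for Mmp9 (adjusted p = 0.0146), the only one of the 7 genes that passed the test in no comparison with naive mice and passed it between the weeks, and 0.51 for Hp (adjusted p = 0.0168). The calls of Camp and Chil3 held under all alternatives, and each of the others was lost when 1 or more single libraries were left out.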

How the results depend on the processing

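Of 30 effects (10 genes in 3 comparisons) under 16 alternatives each, 13 kept direction and side of the threshold throughout, among them Camp and Chil3 in both comparisons with 3 weeks, Ltf and Hp at 3 weeks and Pglyrp1 at both times against naive mice. Over all effects and alternatives 439 were the same, 17 lost a call, 5 gained one and 19 changed sign. With scaling by library size alone the log2 fold change became -0.0929 for Lcn2 and -0.0766 for Mmp8 at 3 weeks against naive mice, and -0.184 for Lcn2, -0.0704 for Mmp8 and -0.0682 for Cd177 from 1 to 3 weeks. Lcn2 from 1 to 3 weeks also became -0.0139 with TMM factors estimated without the 10 genes, -0.0115 without a filter and -0.0174 with at least 10 counts in every library. With 1 library left out, Lcn2 ran from -0.169 to 0.257 at 1 week, -0.18 to 0.284 at 3 weeks and -0.0779 to 0.0644 between the weeks, Mmp8 from -0.14 to 0.00411 at 1 week and -0.00868 to 0.14 at 3 weeks, Hp from -0.00404 to 0.424 and Ngp from -0.155 to 0.0212 at 1 week, and Cd177 from -0.0645 to 0.332 between the weeks. None of these effects had passed the test, and the cause was not tested.

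The number of the 10 genes called at 1 week, 1, was 2 without a filter and 1 to 2 with a library left out; the 6 at 3 weeks ran from 5 to 7 and the 7 between the weeks from 3 to 7. Over all genes 979 at 1 week became 1537 without a filter and 147 to 1145 with a library left out, 147 being without naive replicate 1. The 2626 at 3 weeks became 1668 with DESeq2 on the compared groups and ran from 1362, without naive replicate 1, to 2392, and the 2759 between the weeks from 1502, without week 1 replicate 2, to 2725. The split of 518 higher and 461 lower at 1 week was 362 and 501 with DESeq2 and 575 and 263 with scaling by library size alone, which gave 890 and 1675 at 3 weeks and 856 and 2136 between the weeks. With a replicate block the calls were 1, 6 and 7 among the 10 genes and 959, 2559 and 2709 among all, and the block changed no call among the 10 genes. The share of counts held by the 10 genes, 6.01%, 6.26% and 4.13% in naive, 1-week and 3-week mice, became 9.15%, 9.51% and 6.43% when the 10 other genes with most counts were taken out of the totals. With a library left out, the lone sample of its group was assumed to vary like the others. With 2 libraries a group, for genes that were not called, changes of any size within the 95% intervals given remained possible.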

Other observations

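Among 1282 tested genes outside the 10 with a mean of at least 100 CPM, those whose levels ran most like the mean of Ltf, Camp, Ngp and Chil3 over the 6 libraries were Ptpn18 (r = 0.9963), Hk2 (r = 0.9909), C3 (r = 0.9842), Pxylp1, Rasgrp2, Arhgap4, Lsp1 and Ets1 (r = 0.9776). This comparison was made after the values were seen, the libraries share 3 groups, and the values are a description. Hk2, which encodes hexokinase 2, the first enzyme of glycolysis, was at 169.7 and 192.2 CPM in naive mice, 194.1 and 195.8 at 1 week and 109.4 and 124.9 at 3 weeks (log2 fold change -0.63 at 3 weeks against naive mice, adjusted p = 0.0023). C3, the central complement component, was at 301.8 and 304.9 CPM in naive mice, 286.4 and 345.5 at 1 week and 157.1 and 183 at 3 weeks (log2 fold change -0.83, adjusted p = 4.66e-04). Ets1, a transcription factor, had -0.44 (adjusted p = 0.0123), and Lsp1, an actin-binding protein of leukocytes, -0.62 (adjusted p = 0.00241). In all 8 genes both 3-week libraries lay below the other 4, as in the 4 granule genes that chose them. Since those 4 were lower at 3 weeks, this and the adjusted p-values above largely follow from the choice and are no separate evidence.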
